A study of Homo sapiens with 21 samples.

Results

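The genes described here are the FOS and JUN family, FOS, FOSB, FOSL1, FOSL2, JUN, JUNB and JUND, which encode the core subunits of the transcription factor AP-1. Members were taken by symbol from the table of gene expression, which lists 23368 genes, and all 7 were found and tested. The study asked how cells choose different fates under oxidative stress and under DNA double-strand breaks. RNA was sequenced from hTERT-HPNE cells, a pancreatic line that is immortalized with telomerase and not transformed, in 7 groups of 3 biological replicates. The groups were untreated cells at 0 h, cells at 4, 8 and 24 h after 300 μM H2O2, and cells at 4, 8 and 24 h after 400 ng/ml neocarzinostatin (NCS), a drug that breaks DNA. All cells grew in medium with serum, EGF and puromycin, and the medium was exchanged for fresh medium when the agents were added. There was no group with fresh medium alone at 4, 8 or 24 h, so the medium change and the time in culture cannot be told apart from the treatment in any comparison with untreated cells. Comparisons of H2O2 with NCS at the same time do not have this limit.

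AP-1 is a dimer of basic leucine zipper proteins. JUN proteins pair with each other or with FOS proteins, while FOS proteins need a JUN partner to bind DNA. FOS, FOSB, JUN and JUNB are classic immediate early genes, whose transcription starts within minutes of a growth or stress signal without new protein synthesis and whose mRNAs are short-lived. JUND is usually expressed more steadily, and FOSL1 and FOSL2, which lack the strong activation domain of FOS, are often kept up by lasting ERK signaling. The kinases ERK, JNK and p38 act on this family both through its transcription and through phosphorylation of its proteins, and only the mRNAs were measured here.

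Stretches of the proximal promoters are shown first. The 4 members with the largest differences in H2O2 at 4 h have letters in common just before their gene starts. These letters were chosen after the windows and the expression values had been seen, and a link with the response was not tested. The sequences are RefSeq's (GRCh38.p14), in which 6 of the 7 members were matched and FOSL1 was not. The 30 bases from 50 to 21 before the annotated start are given 5′ to 3′ on the strand of the gene, with the letters TATAA, the core of a TATA box, in capitals. They lie at chr14:75278778-75278807 (plus strand) for FOS, chr19:45467946-45467975 (plus) for FOSB, chr19:12791436-12791465 (plus) for JUNB, chr19:18281643-18281672 (minus) for JUND, chr2:28392808-28392837 (plus) for FOSL2 and chr1:58784068-58784097 (minus) for JUN.
FOS: attcataaaacgcttgtTATAAaagcagtg
FOSB: aggggggcgggtcccgggcaTATAAataca
JUNB: ccgtggctgactagcgcggTATAAaggcgt
JUND: ctcatcgcgccgagccgaggcTATAAgagg
FOSL2: acatggtacagggctggagaataaagagtg
JUN: tttaggggttgactggtagcagataagtgt
TATAA lay on the gene's strand with its first base 33 bases before the start in FOS, 30 in FOSB, 31 in JUNB and 29 in JUND. Of all 35116 promoter windows in the RefSeq table, 3.77% held TATAA on the gene's strand between 40 and 21 bases before the start. Anywhere in the 250 bases before the start and on either strand, 18.9% held it. In FOS it also stood on the other strand, overlapping the first. The windows of FOSL2 and JUN held no TATAA. RefSeq and GENCODE place some of these starts differently, and the stretches of FOS, FOSL2 and JUN lie within the longer GENCODE v29 models of these genes.

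The 250 bases before the start are printed for FOSB, JUNB and JUND, the 3 members with the largest log2 differences in H2O2 at 4 h. Capitals mark TATAA and TGACG, the half-site of the cyclic AMP response element (CRE) to which ATF and CREB proteins and JUN dimers with ATF2 bind, on either strand, so that CGTCA is TGACG read on the other strand. The windows lie at chr19:45467746-45467995 (plus strand) for FOSB, chr19:12791236-12791485 (plus) for JUNB and chr19:18281623-18281872 (minus) for JUND.
FOSB: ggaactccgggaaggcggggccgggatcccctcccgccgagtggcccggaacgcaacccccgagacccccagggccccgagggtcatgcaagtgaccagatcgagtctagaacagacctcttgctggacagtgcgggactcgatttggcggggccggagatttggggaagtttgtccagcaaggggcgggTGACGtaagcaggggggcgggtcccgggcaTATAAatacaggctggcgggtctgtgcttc
JUNB: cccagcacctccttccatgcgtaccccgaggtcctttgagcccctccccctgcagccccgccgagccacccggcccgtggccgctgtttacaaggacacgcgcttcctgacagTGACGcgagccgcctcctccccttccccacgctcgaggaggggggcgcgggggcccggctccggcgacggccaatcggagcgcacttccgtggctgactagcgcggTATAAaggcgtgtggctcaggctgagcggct
JUND: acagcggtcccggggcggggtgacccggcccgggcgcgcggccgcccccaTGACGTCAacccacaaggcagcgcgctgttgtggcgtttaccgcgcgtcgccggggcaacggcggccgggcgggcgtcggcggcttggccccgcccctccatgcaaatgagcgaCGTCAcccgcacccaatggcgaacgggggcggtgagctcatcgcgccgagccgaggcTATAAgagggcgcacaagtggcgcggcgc
TGACG was present on either strand in all 6 members' windows and in 21.2% of all windows. Its extension TGACGT was in FOS, FOSB, FOSL2 and JUND and in 7.1% of windows. In JUND it formed the full palindrome TGACGTCA 200 bases before the start, a word held by 1.65% of windows that contains TGACG on both strands. JUN held TGACATCA 67 bases and TTACCTCA 186 bases before its start, and these CRE-like words were in 2.37% and 0.644% of windows. No window of a member held TGACTCA, the consensus AP-1 site (4.2% of windows), or a CArG box, the site of serum response factor (1.16%), within these 250 bases. CCAAT was in the windows of JUN, JUNB and JUND and in 32.0% of all windows. The GC content of the members' windows lay between 62.0% (JUN) and 74.8% (JUND), and the median of all windows was 58%. The shares are thus not those of windows with a like GC content. The words and the 40 to 21 base interval were chosen after the windows and the expression values had been seen, and a match is a description, not a site shown to be used.

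**Figure D1:**
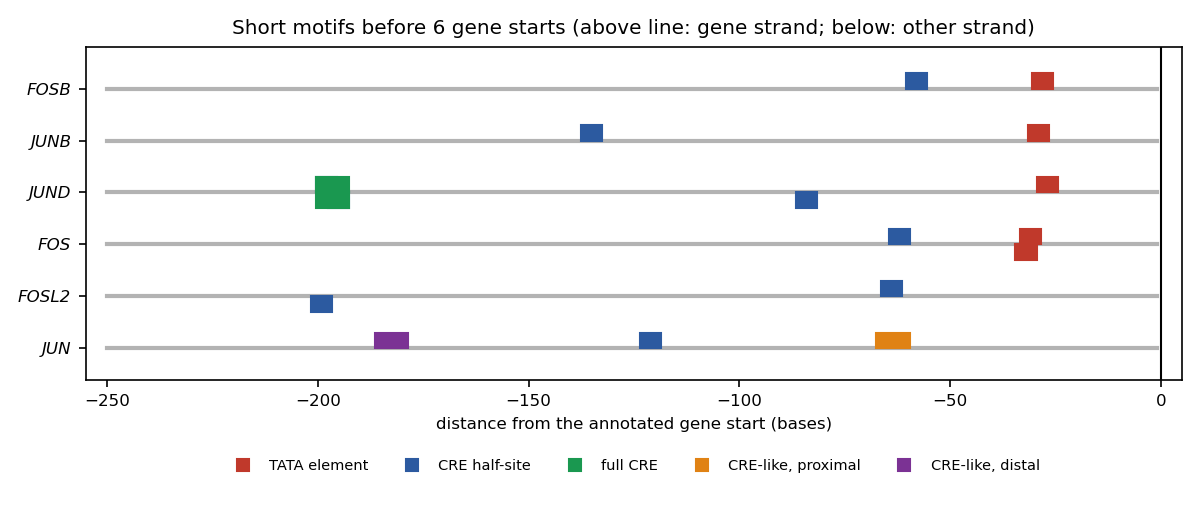
Positions of the searched words in the 250 bases before the annotated starts of 6 members, with distance from the start in bases on the x axis, words on the gene's strand above each line and on the other strand below it. A TATA element lies 29 to 33 bases before the start in FOSB, JUNB, JUND and FOS and is not in the windows of FOSL2 and JUN, while every window has at least 1 CRE half-site, here drawn as part of the full CRE in JUND at 200 bases.

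The values used are the deposited rLog values, a log2 scale corrected for library size on which differences of genes with few reads are shrunk most. No counts come with them, which leaves the depth per library unknown, and a fold change calculated from them understates the change of weakly expressed genes. Differences between groups were tested with limma over 19694 genes that were not at 0 in every library, and a gene is said to have risen or fallen only at a Benjamini-Hochberg adjusted p-value under 0.05. With 3 libraries against 3, the smallest two-sided exact permutation p-value for a single gene is 0.1. Library medians lay between 7.14 and 7.19 and no pair of libraries was a duplicate. Markers of the line were high in every library (TERT 13.86 to 14.37, NES 11.78 to 12.28, VIM 16.79 to 17.25). Of the duct epithelium markers, KRT18 (11.38 to 11.85), KRT8, KRT7 and SOX9 were present, while KRT19 did not exceed 0.73 and EPCAM and CFTR lay below 0. Of the markers of other pancreas and blood cells, PRSS1 and INS were at 0 in every library. CPA1, AMY2A, GCG and PTPRC did not exceed 0.98. PECAM1 lay between 2.02 and 2.42, and the collagen gene COL1A1 was high in every library of this line, between 17.51 and 18.06. In bulk RNA, fewer expressing cells and less mRNA per cell cannot be told apart.

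Per kilobase of annotated exon, FOSL1 was the highest member in all 7 groups, with log2 levels per kilobase between 11.29 and 11.97, and JUN was second in all 7, between 9.09 and 9.58. FOSL2 (9.02), JUND (8.61) and JUNB (7.93) followed in untreated cells, and FOS (5.33) and FOSB (4.46) were lowest. In H2O2 at 4 h FOSB reached 9.34 per kilobase, next to JUN at 9.47, JUNB at 9.45, JUND at 9.42 and FOSL2 at 9.28, so that 5 members stood between 9.28 and 9.47, below FOSL1 at 11.97. FOS was the lowest member per kilobase in each of the 6 treated groups, between 4.24 and 6.09.

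Against untreated cells, 6 of 7 members rose in H2O2 at 4 h and none fell, while 45.9% of all genes passed the same test and 26.2% rose. The share of members was thus above that of all genes tested. These include many weakly expressed genes, since 11674 genes outside the family had a mean value of at least 5. The share among genes of a like level was not calculated. The sizes differed widely, from 4.88 for FOSB to 0.14 for FOSL1, with JUN at -0.006 (95% interval -0.13 to 0.11, adjusted p = 0.972). The median difference of the 7 members was 0.76 and that of all genes 0.004. FOSB and JUNB also exceeded a log2 difference of 1, as did 0.696% of all genes in either direction. In NCS at 4 h, 3 members rose (FOSB, FOSL2 and JUNB) and FOS fell, against 17.2% of genes that passed (7.47% higher and 9.72% lower), and none of them exceeded a log2 difference of 1 in either direction, against 0.218% of genes. At this time the median difference of the members was 0.12.

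**Figure D2:**
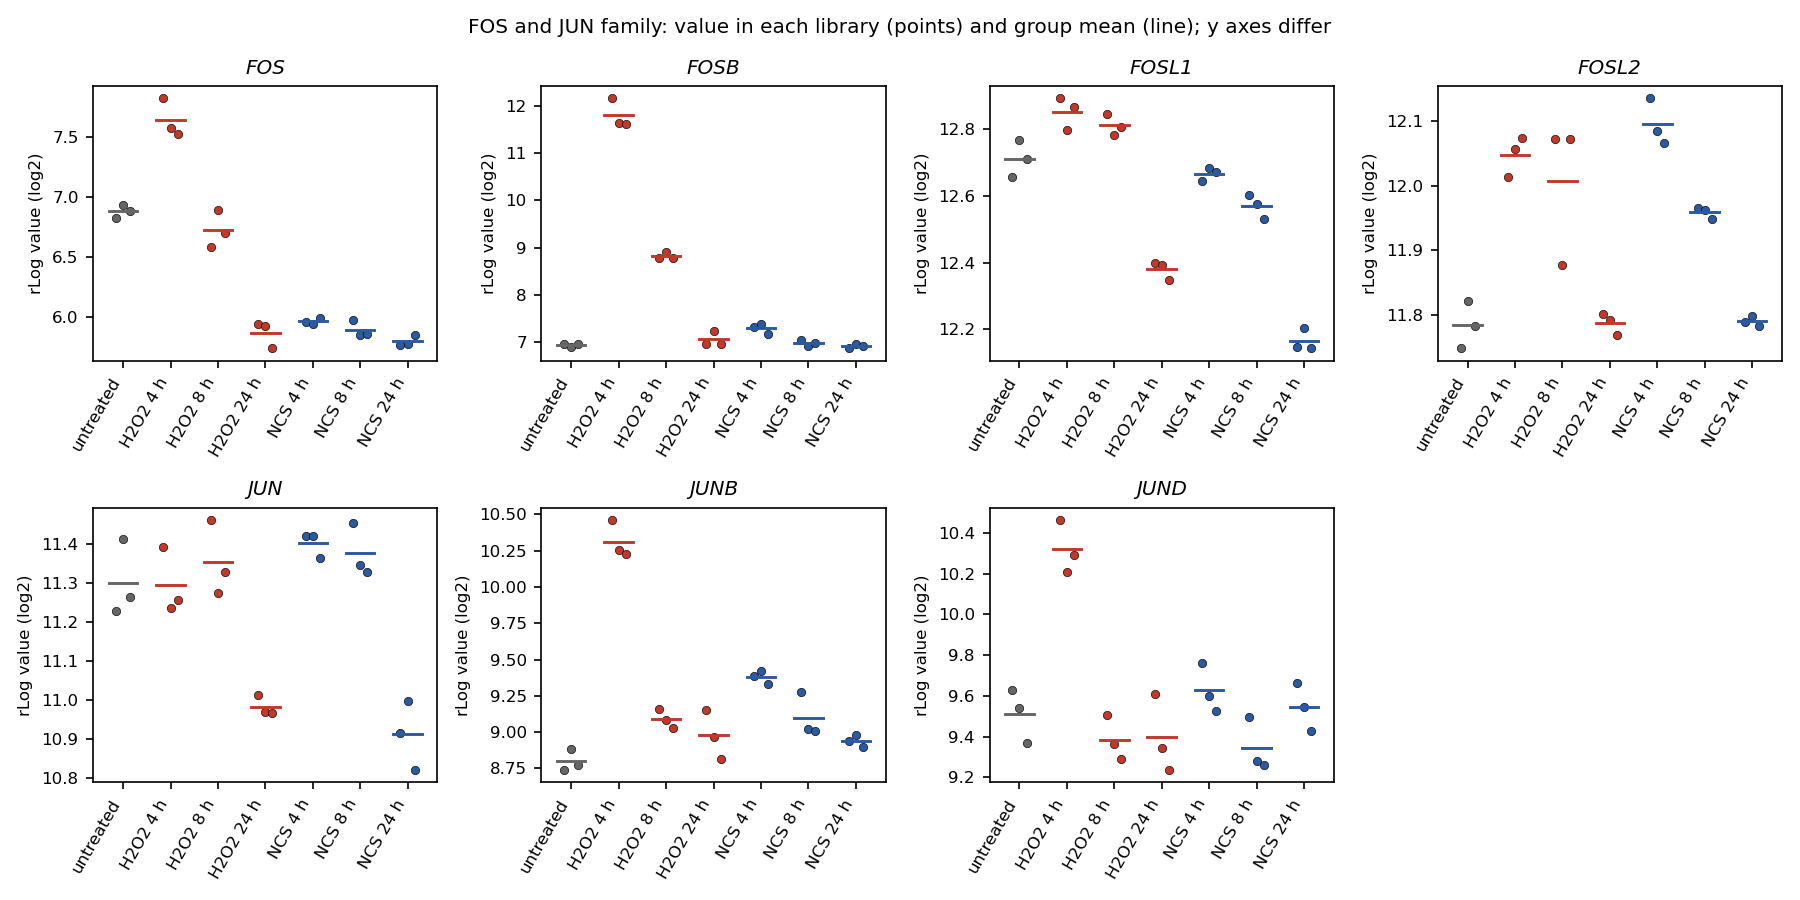
rLog values (log2, y axes differ) of the 7 members in each of the 21 libraries, with points for libraries and lines for group means, untreated in grey, H2O2 in red and NCS in blue. FOSB stands between 11.62 and 12.16 in H2O2 at 4 h and between 6.87 and 7.37 in untreated and NCS libraries, while JUN and FOSL1 are lowest at 24 h after both agents.

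FosB is a FOS protein with a transactivation domain, and its gene showed the largest difference of the family. FOSB values were 6.95, 6.88 and 6.95 in untreated cells and 12.16, 11.64 and 11.62 in H2O2 at 4 h. They were 8.78, 8.92 and 8.79 at 8 h and 6.95, 7.24 and 6.96 at 24 h of H2O2. Every library of the 4 h group stood above every library of the 8 h group, and every library of the 8 h group above all remaining libraries of the series. FOSB rose by 4.88 at 4 h (SE 0.11, 29.4-fold, adjusted p = 5.39e-16, exact permutation p = 0.1) and was still 1.90 above untreated cells at 8 h (adjusted p = 3.12e-10). It fell by 2.98 between 4 and 8 h and by 1.78 between 8 and 24 h (adjusted p = 1.21e-12 and 2.52e-10), and at 24 h the difference from untreated cells was 0.12 (95% interval -0.10 to 0.35, adjusted p = 0.446). FOSB overlaps ERCC1, a DNA repair gene on the opposite strand, and the strand setting of the counting is not given in the sources used here, so reads of overlapping parts cannot be told apart. ERCC1 itself lay between 11.27 and 11.28 in H2O2 at 4 h and between 11.14 and 11.18 in untreated cells, a rise of 0.11 (adjusted p = 6.19e-05).

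After NCS, FOSB values were 7.32, 7.37 and 7.16 at 4 h. The 8 h libraries had 7.05, 6.92 and 6.97, and the 24 h libraries 6.87, 6.95 and 6.91. The 4 h libraries stood above the untreated ones without overlap, and the later ones overlapped with them. FOSB rose by 0.36 at 4 h (SE 0.11, adjusted p = 0.0269). This call was lost when any 1 of the untreated replicates 1, 2 or 3 or of the NCS 4 h replicates 1 or 2 was left out, with adjusted p-values between 0.0537 and 0.109 and differences between 0.31 and 0.37. At 8 h the difference was 0.05 and at 24 h -0.02, with 95% intervals of -0.17 to 0.28 and -0.25 to 0.20.

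FOS, the founding member and the most labile of the family, showed opposite directions after the 2 agents at 4 h. Its values were 6.82, 6.93 and 6.89 in untreated cells, 7.82, 7.58 and 7.53 in H2O2 at 4 h, and 5.96, 5.94 and 5.99 in NCS at 4 h. The 3 groups did not overlap, with H2O2 above and NCS below untreated cells. FOS rose by 0.76 in H2O2 (SE 0.08, 1.70-fold, adjusted p = 3.24e-07) and fell by 0.92 in NCS (SE 0.08, adjusted p = 1.5e-07).

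At 8 h of H2O2, FOS stood at 6.58, 6.89 and 6.70, overlapping with untreated cells, and the difference was -0.16 (95% interval -0.32 to 0.01, adjusted p = 0.147). Without H2O2 8 h replicate 2 this difference was -0.24 and passed the test (adjusted p = 0.023). At 24 h of H2O2 the values were 5.94, 5.92 and 5.74, below every untreated library. FOS had fallen by 1.02 against untreated cells (adjusted p = 4.64e-09), after falls of 0.92 between 4 and 8 h and 0.86 between 8 and 24 h. After NCS it was already low at 4 h, and later stood at 5.98, 5.85 and 5.86 at 8 h and 5.77, 5.77 and 5.85 at 24 h. Against untreated cells these were falls of 0.99 and 1.09 (adjusted p = 2.76e-08 and 2.03e-09), while the difference between NCS at 8 and 4 h was -0.07 (95% interval -0.24 to 0.10) and that between 24 and 8 h was -0.10 (-0.27 to 0.07). In order of mean level, H2O2 at 4 h came first, untreated cells and H2O2 at 8 h overlapped, and below a gap of 0.76 the groups NCS at 4 h, NCS at 8 h, H2O2 at 24 h and NCS at 24 h each overlapped with the next.

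JunB, a JUN protein with weaker transactivation than JUN, is encoded by a gene without introns. JUNB stood at 8.74, 8.88 and 8.77 in untreated cells, at 10.46, 10.25 and 10.22 in H2O2 at 4 h and at 9.39, 9.42 and 9.33 in NCS at 4 h. The groups did not overlap, with H2O2 highest and NCS between. JUNB rose by 1.51 in H2O2 (SE 0.08, 2.86-fold, adjusted p = 4.69e-11) and by 0.58 in NCS (SE 0.08, adjusted p = 3.78e-05).

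At 8 h JUNB values were 9.16, 9.08 and 9.03 in H2O2 and 9.28, 9.02 and 9.00 in NCS, and all 6 libraries were above the untreated ones. The rises were then 0.29 and 0.30 (adjusted p = 0.0074 and 0.00917). The call in NCS was lost without NCS 8 h replicate 1 (0.21, adjusted p = 0.0675), the highest library of that group, and in a fit of only the groups compared (adjusted p = 0.0522). At 24 h JUNB lay at 9.15, 8.97 and 8.82 in H2O2 and at 8.94, 8.98 and 8.90 in NCS. The difference from untreated cells was 0.18 in H2O2 (95% interval 0.010 to 0.35, adjusted p = 0.0891), with ranges that overlapped, and 0.14 in NCS (-0.029 to 0.31, adjusted p = 0.205). Without H2O2 24 h replicate 3, the lowest library, the first of these was 0.26 and passed the test (adjusted p = 0.0167). With all libraries kept it also passed after alignment of library medians (0.16, adjusted p = 0.046), with a mean of at least 5 (adjusted p = 0.0273) and with the replicate number as a block (adjusted p = 0.0318). HOOK2 overlaps JUNB on the opposite strand, and its difference from untreated cells was 0.05 in H2O2 at 4 h (adjusted p = 0.527). HOOK2 was lower than in untreated cells after 8 h of H2O2, with ranges that overlapped (-0.15, adjusted p = 0.0342). The 24 h libraries of both agents had more HOOK2, by 0.38 for H2O2 and 0.40 for NCS (adjusted p = 1.35e-05 and 8.53e-06). Its differences of 0.03 and 0.13 in NCS at 4 and 8 h did not pass. Whether HOOK2 reads entered the JUNB values was not tested.

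JunD, which often slows growth where JUN promotes it, is likewise encoded by a gene without introns. JUND stood at 9.63, 9.54 and 9.37 in untreated cells and at 10.46, 10.21 and 10.29 in H2O2 at 4 h. The libraries taken 8 h after H2O2 had 9.50, 9.36 and 9.29, and those taken after 24 h had 9.61, 9.35 and 9.24. The 4 h group was above all other libraries of the series, and the later groups overlapped with untreated cells. JUND rose by 0.81 at 4 h (SE 0.10, 1.75-fold, adjusted p = 2.49e-06) and fell by 0.94 between 4 and 8 h (adjusted p = 4.69e-07). Its differences from untreated cells were -0.13 at 8 h (95% interval -0.34 to 0.08) and -0.12 at 24 h (-0.33 to 0.09). With the replicate number as a block in the fit, both passed the test (adjusted p = 0.0178 and 0.0282).

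After NCS, JUND values were 9.76, 9.60 and 9.53 at 4 h. The 8 h libraries had 9.49, 9.28 and 9.26, and the 24 h libraries 9.66, 9.55 and 9.43. All 3 groups overlapped with untreated cells, and the differences of 0.12, -0.17 and 0.03 did not pass the test (adjusted p = 0.556, 0.287 and 0.92). With the replicate number as a block in the fit, the difference of -0.17 at 8 h passed (adjusted p = 0.00478). In all 7 groups the highest JUND value was that of replicate 1, which was so for 14 of 19694 genes (0.0711%), and no other member had 1 replicate number highest in every group. This was noticed after the values had been seen.

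FOSL1, which encodes Fra-1, was the only member to differ between H2O2 and NCS at all 3 times. Its values were 12.66, 12.77 and 12.71 in untreated cells, 12.89, 12.80 and 12.87 in H2O2 at 4 h, 12.85, 12.78 and 12.81 at 8 h, and then 12.40, 12.39 and 12.35 after 24 h. In NCS they were 12.64, 12.68 and 12.67 at 4 h, 12.60, 12.58 and 12.53 at 8 h, and then 12.15, 12.20 and 12.14 after 24 h. At each time every H2O2 library was above every NCS library, and both 24 h groups were below all others. Against untreated cells FOSL1 rose by 0.14 at 4 h and by 0.10 at 8 h of H2O2 (SE 0.03, adjusted p = 0.000819 and 0.0127) and fell by 0.33 at 24 h (adjusted p = 3.68e-08). The rise at 8 h was lost without untreated replicate 1 (0.07, adjusted p = 0.085), without H2O2 8 h replicate 1 (0.08, adjusted p = 0.0664) and in a fit of only the groups compared (adjusted p = 0.0856). In NCS the difference was -0.04 at 4 h (95% interval -0.11 to 0.02), and FOSL1 fell by 0.14 at 8 h and by 0.55 at 24 h (adjusted p = 0.00159 and 3.29e-11).

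FOSL2, which encodes Fra-2, rose after both agents. In untreated cells it lay between 11.75 and 11.82, in H2O2 at 4 h between 12.01 and 12.07 and in NCS at 4 h between 12.07 and 12.14. The treated libraries were above the untreated ones without overlap. An antisense gene overlaps FOSL2, whose reads cannot be told apart from it. FOSL2 rose by 0.26 in H2O2 and by 0.31 in NCS (SE 0.04, adjusted p = 1.26e-05 and 7.51e-06), and at 8 h by 0.22 and 0.18 (adjusted p = 9.03e-05 and 0.00168). At 24 h it lay between 11.77 and 11.80 in H2O2 and between 11.78 and 11.80 in NCS, within the untreated range, with differences of 0.004 and 0.006 (95% intervals -0.075 to 0.083 and -0.073 to 0.085).

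JUN, the strongest activator among the JUN proteins and a main substrate of JNK, was the only member that did not pass the test against untreated cells at 4 or 8 h after either agent. It stood at 11.23, 11.41 and 11.26 in untreated cells, at 11.39, 11.24 and 11.26 in H2O2 at 4 h and at 11.42, 11.42 and 11.37 in NCS at 4 h. At 8 h it lay between 11.27 and 11.46 in H2O2 and between 11.33 and 11.45 in NCS, and all 4 treated groups at 4 and 8 h overlapped with untreated cells. The 4 differences lay between -0.006 and 0.10, and the highest upper limit of their 95% intervals was 0.22, in NCS at 4 h. No RNA was taken from treated cells before 4 h, so an earlier, short change of JUN or another member was not measured. At 24 h JUN stood at 11.01, 10.97 and 10.97 in H2O2 and at 10.92, 11.00 and 10.82 in NCS, below every other library of the series. It had fallen by 0.32 and 0.39 against untreated cells (SE 0.06, adjusted p = 0.000136 and 1.6e-05).

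In the order of group means, FOSB stood highest in H2O2 at 4 h, then in H2O2 at 8 h, and below NCS at 4 h each group overlapped with the next. JUNB was ordered H2O2 at 4 h, NCS at 4 h and NCS at 8 h without overlap, after which NCS at 8 h, H2O2 at 8 h, H2O2 at 24 h and NCS at 24 h each overlapped with the next and untreated cells lay below NCS at 24 h. For JUND and JUN only 1 step in the order was free of overlap, below H2O2 at 4 h for both, and H2O2 at 4 h was the highest group for JUND and the fifth for JUN. FOSL2 also had 1 such step, between NCS at 8 h and NCS at 24 h. FOSL1 had 4 of 6 steps free of overlap, and the neighbours that overlapped were H2O2 at 4 and 8 h, and untreated cells and NCS at 4 h. The steps of all other genes were not counted, so these numbers are a description of the members only. Between H2O2 and NCS at 4 h, the ranges of 50.1% of all genes were apart.

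**Figure D3:**
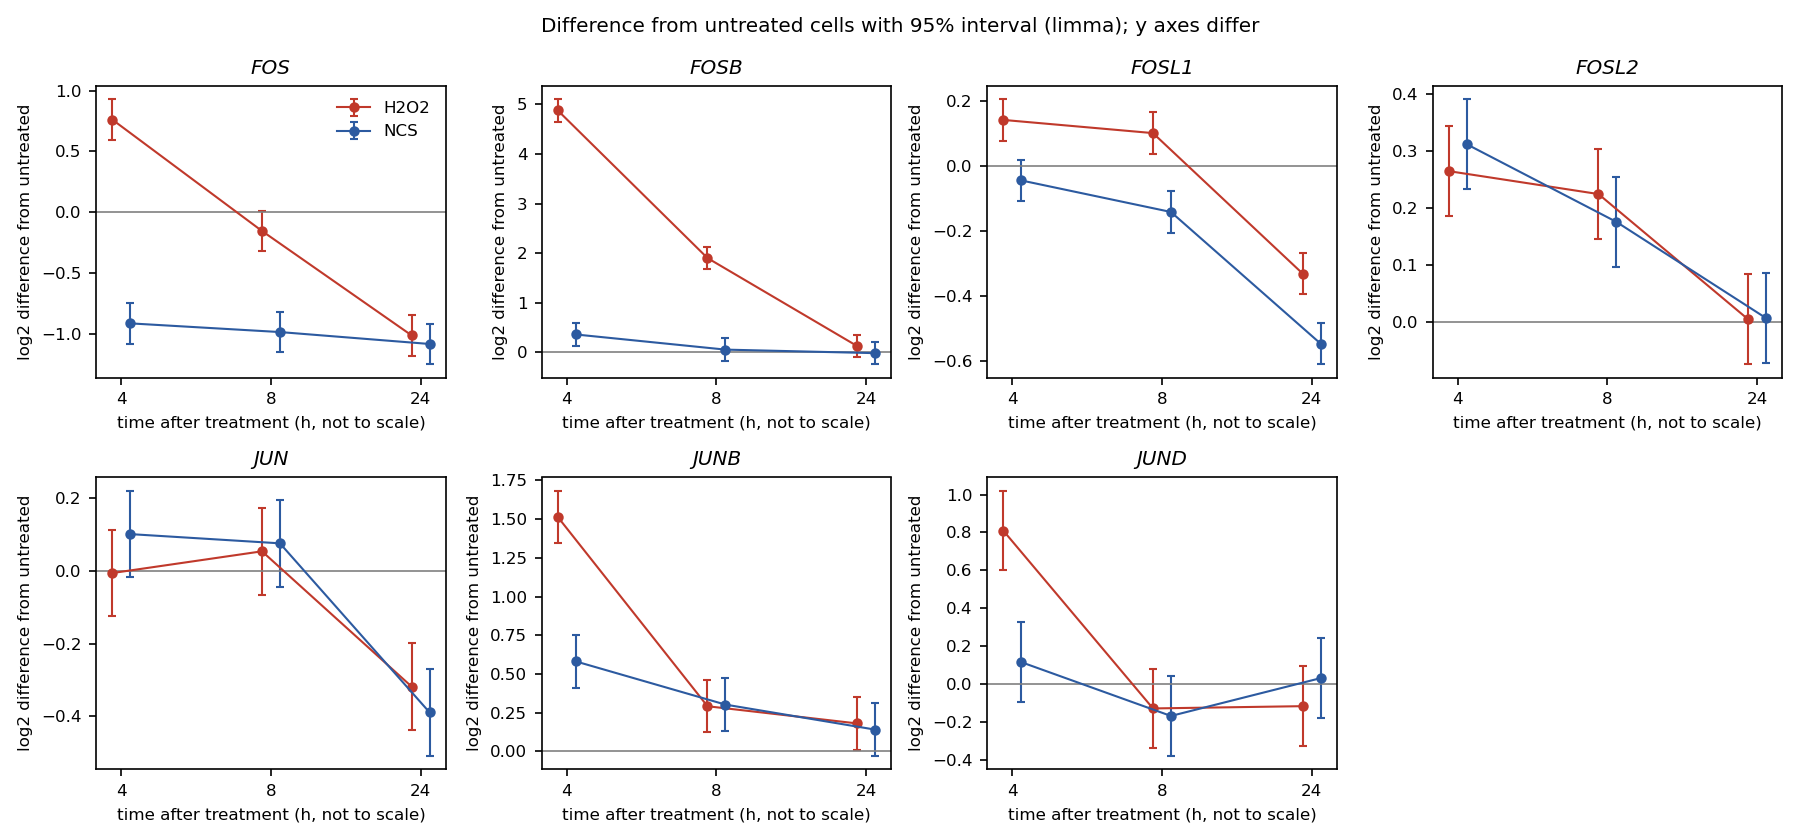
Log2 difference of each member from untreated cells at 4, 8 and 24 h after H2O2 (red) or NCS (blue), with points for limma estimates, bars for 95% intervals and y axes that differ. FOSB, FOS, JUNB and JUND are highest at 4 h in H2O2, FOSL2 is above 0 at 4 and 8 h after both agents, and FOS, FOSL1 and JUN lie below 0 at 24 h after both.

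At 8 h of H2O2, 4 of 7 members were above untreated cells (FOSB, FOSL1, FOSL2 and JUNB) and none was below, against 37.4% of all genes that passed and 18.8% that were higher. In NCS at 8 h, FOSL2 and JUNB were higher and FOS and FOSL1 lower, against 23.9% of genes (10.5% higher and 13.3% lower). At 24 h the same 3 members, FOS, FOSL1 and JUN, had fallen in H2O2 and in NCS and none had risen, against 40% and 38% of genes that passed and 19.9% and 18.4% that fell. The 3 of 7 that passed is close to this share of all genes tested, weakly expressed ones included. Both comparisons use the same 3 untreated libraries. A log2 difference of 1 was exceeded by FOSB at 8 h of H2O2 (0.518% of genes) and by FOS at 24 h of H2O2 and of NCS (1.61% and 1.5%), while no member exceeded it in NCS at 8 h (0.34%).

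Compared directly at the same time, 5 of 7 members at 4 h had higher levels in H2O2 than in NCS and none was lower, against 44.4% of all genes that passed and 26.3% that were higher. FOSB differed by 4.52 (SE 0.11, adjusted p = 2.02e-15), FOS by 1.68 (SE 0.08, adjusted p = 1.39e-11), JUNB by 0.93, JUND by 0.69 and FOSL1 by 0.19. The ranges of the 3 libraries were apart for these 5 members and for 50.1% of all genes. FOSL2 differed by -0.05 (95% interval -0.13 to 0.03) and JUN by -0.11 (-0.23 to 0.01). Without H2O2 4 h replicate 1, JUN was lower in H2O2 by the test (-0.16, adjusted p = 0.0457).

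At 8 h, FOSB (1.85), FOS (0.83) and FOSL1 (0.24) were higher in H2O2 (adjusted p = 8.97e-10, 2.69e-07 and 5.18e-06), against 34.1% of genes that passed and 18.7% that were higher. JUNB was now at -0.01 (95% interval -0.18 to 0.16) and JUND at 0.04 (-0.17 to 0.25). FOSL2 differed by 0.05 (-0.03 to 0.13), and by 0.11 with a passed test when H2O2 8 h replicate 2, its lowest library of that group, was left out (adjusted p = 0.000913). At 24 h FOSL1 passed (0.22, adjusted p = 3.44e-05), against 21.9% of genes (11% higher). The other 6 members lay between -0.15 for JUND and 0.14 for FOSB at 24 h, and the 95% interval reached -0.36 for JUND and 0.37 for FOSB. With the replicate number as a block in the fit, JUND passed at 24 h (adjusted p = 0.0125).

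**Figure D4:**
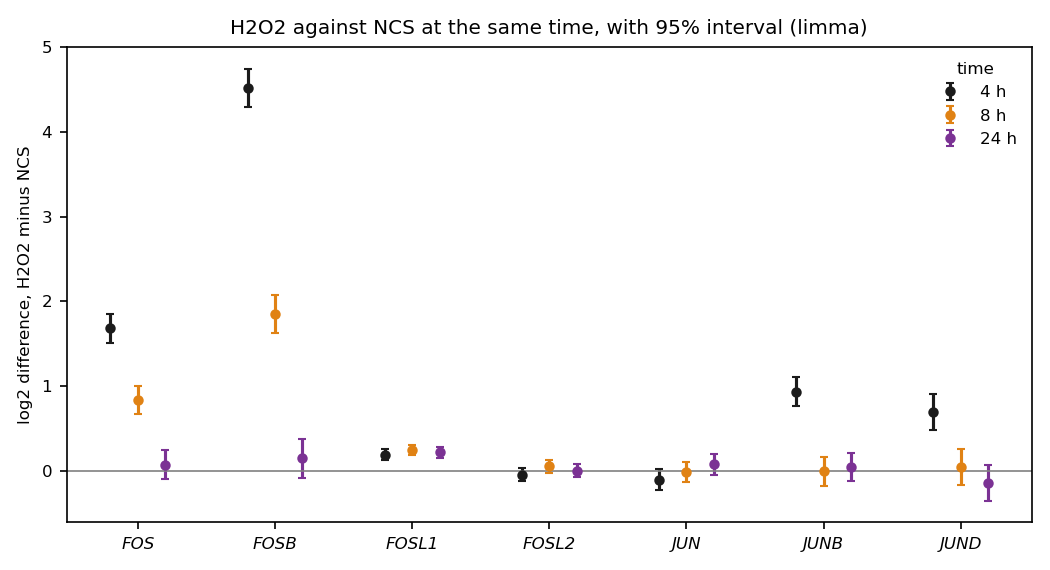
Log2 difference between H2O2 and NCS at the same time for each member, with limma estimates as points, 95% intervals as bars and colors for 4, 8 and 24 h. The FOSB difference is 4.52 at 4 h, then 1.85 and finally 0.14, while FOSL1 stays between 0.19 and 0.24.

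The change of the difference between agents with time was tested by interaction terms. It fell from 4 to 8 h for FOSB (-2.67), JUNB (-0.94), FOS (-0.85) and JUND (-0.65), and these 4 of 7 members compare with 32.7% of all genes that passed and 18% whose term was negative and passed. From 4 to 24 h it fell for the same 4 members, against 39.4% of genes that passed and 22.7% with a negative term. For FOSL1 the interaction was 0.06 between 8 and 4 h (95% interval -0.03 to 0.15) and 0.03 between 24 and 4 h (-0.06 to 0.12), with adjusted p-values of 0.349 and 0.626. After quantile normalization the latter was 0.12 and passed the test (adjusted p = 0.0478). For JUN the term between 24 and 4 h was 0.18 (0.010 to 0.35, adjusted p = 0.0885). It passed with all libraries kept when genes had a mean of at least 5 (adjusted p = 0.0341) or with only the groups compared (adjusted p = 0.0497), and also without H2O2 4 h replicate 1 (0.23, adjusted p = 0.0334) and without NCS 24 h replicate 2 (0.22, adjusted p = 0.0434). For FOSL2 the term between 8 and 4 h was 0.10 (adjusted p = 0.186) and passed without H2O2 8 h replicate 2 (0.16, adjusted p = 0.000684).

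Between consecutive times within a treatment no member rose by the test. JUND differed by 0.20 between NCS at 24 and 8 h (adjusted p = 0.16), and this difference passed with library medians aligned (0.23, adjusted p = 0.0179) and with a mean of at least 5 (adjusted p = 0.0488). It also passed with the replicate number as a block (adjusted p = 0.0009). In H2O2, FOS, FOSB, JUNB and JUND fell between 4 and 8 h (4 of 7, against 45.7% of genes that passed and 27.7% that fell), and FOS, FOSB, FOSL1, FOSL2 and JUN fell between 8 and 24 h (5 of 7, against 42.6% and 23.2%). JUNB had thus lost 1.22 by 8 h and differed by -0.11 between 24 and 8 h (95% interval -0.28 to 0.06). In NCS, FOSL1, FOSL2 and JUN fell between 8 and 24 h by 0.40, 0.17 and 0.47 (3 of 7, against 29.9% of genes that passed and 15% that fell). Between 4 and 8 h of NCS, FOSL1 (-0.10), FOSL2 (-0.14) and JUNB (-0.28) passed (3 of 7, against 13.7% and 7.5%). None of these 3 passed without NCS 4 h replicate 1, NCS 8 h replicate 2 or NCS 8 h replicate 3, and FOSL2 alone passed without NCS 4 h replicate 2. FOSL1 did not pass without NCS 4 h replicate 3 either (-0.09, adjusted p = 0.103), and JUND did when NCS 8 h replicate 1 was left out (-0.36, adjusted p = 0.0406). JUNB was also lost with only the groups compared (adjusted p = 0.056) and FOSL1 after quantile normalization (adjusted p = 0.0966), while FOSB (-0.31) and JUND (-0.28) passed with a mean of at least 5 (adjusted p = 0.0149 and 0.0128) and with library medians aligned (0.0117 and 0.0103). JUND also passed with the replicate number as a block (adjusted p = 0.000127).

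Across the 21 libraries, which are 7 groups of 3 and so share their treatments, JUNB correlated most with JUND (Pearson r = 0.901) and FOSB (0.891), FOS with FOSB (0.837) and FOSL1 with JUN (0.835), while JUN and JUND gave the lowest value of the family (0.170). Among 11674 other genes with a mean value of at least 5, the closest to FOSB were MMP25 (0.991), which encodes a membrane-anchored matrix metalloproteinase, ITGA7 (0.985) and COL11A2 (0.982). The closest to JUNB were MAFK (0.952), CSRNP1 (0.950) and LOC285954 (0.949), and the closest to FOSL2 were SPHK1 (0.952), FST (0.944) and TNFRSF12A (0.938). FOS was followed most closely by THOC6, LOC399815 and CCDC163P (0.953 to 0.955) and JUND by CSTF3, NAB1 and MICALCL (0.910 to 0.920). FOSL1 was followed by ZNF551, RNPS1 and DDX21 (0.968 to 0.975) and JUN by DUS3L, UBE2J2 and RBM10 (0.947 to 0.953). These are descriptions of likeness over libraries that share groups and normalization.

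Other leucine zipper proteins can take the place of a FOS or JUN subunit. Of 11 such partner genes, all tested, 7 rose and 2 fell in H2O2 at 4 h, with a median of 0.18, against 45.9% of all genes that passed and 26.2% that rose. After quantile normalization 5 instead of 9 passed. ATF3, a stress-induced repressor and partner of JUN proteins, rose by 3.45 in H2O2 and by 1.58 in NCS at 4 h. ATF4, the effector of the integrated stress response, rose by 0.92 in H2O2 and fell by 0.18 in NCS, and JDP2, a JUN-binding repressor, rose by 0.76 in H2O2. ATF2 fell by 0.13 in H2O2 and by 0.35 in NCS, and ATF7 fell by 0.12 in H2O2. In NCS at 4 h ATF3 and BATF3 (0.21) rose, and ATF2 and ATF4 fell, 4 of 11 against 17.2% of genes. The partners that passed then numbered 6 at 8 h and 7 at 24 h of H2O2 (37.4% and 40% of genes), and 1 at 8 h (ATF3) and 6 at 24 h of NCS (23.9% and 38%). In NCS at 8 h the number was 3 after alignment of library medians and 2 without untreated replicate 3.

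Upstream of the family stand the MAP kinases and the factors that bind its promoters. Of 18 such genes, 5 rose and 7 fell in H2O2 at 4 h, with a median of -0.06, against 45.9% of all genes that passed, and no difference exceeded 0.38 in size. MEF2A (0.38), MAPK8, which encodes JNK1 (0.19), and ELK1 (0.11) had the largest rises. MAPK7, which encodes ERK5 (-0.34), MAPK14, which encodes p38α (-0.33), and MAP2K4, a kinase that activates JNK (-0.22), had the deepest falls. In NCS at 4 h SRF (0.24) and MEF2A (0.17) rose and none fell, 2 of 18 against 17.2% of genes. The numbers that passed were 8 at 8 h and 6 at 24 h of H2O2 (37.4% and 40% of genes) and 6 at 8 h and 10 at 24 h of NCS (23.9% and 38%). The 2 of 18 in NCS at 4 h and the 6 of 18 in H2O2 at 24 h are smaller shares than those of all genes. At 8 h of H2O2 the number was 5 without H2O2 8 h replicate 1, and at 8 h of NCS it was 3 without untreated replicate 3 or in a fit of only the groups compared. At 24 h of NCS it was 6 after quantile normalization.

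Of 8 genes that act in the turnover of JUN proteins and of AU-rich early mRNAs, 1 rose and 2 fell in H2O2 at 4 h, and 1 rose and 3 fell in NCS. The 3 of 8 in H2O2 is a smaller share than the 45.9% of all genes that passed, and the 4 of 8 in NCS a larger one than 17.2%. ZFP36, which encodes tristetraprolin, a protein that destabilizes AU-rich mRNAs, fell by 0.34 in H2O2 and by 0.22 in NCS. ITCH, a ubiquitin ligase of JUN proteins, fell by 0.22 in H2O2, and FBXW7, another ligase of JUN, rose by 0.38 in NCS. HNRNPD (AUF1) rose by 0.06 in H2O2 and fell by 0.09 in NCS, and ZFP36L1 fell by 0.22 in NCS. In NCS at 4 h the number that passed was 2 instead of 4 without untreated replicate 2. The numbers at 8 and 24 h were 5 and 6 in H2O2 (37.4% and 40% of genes) and 4 and 5 in NCS (23.9% and 38%).

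Of 23 genes described as AP-1 targets, 22 were tested, since CCL2 was at 0 in every library. In H2O2 at 4 h 13 rose and 1 fell, with a median of 0.14, against 45.9% of all genes that passed and 26.2% that rose. HMOX1, which encodes heme oxygenase 1 and is also a target of other stress factors, rose by 3.44, the cytokine gene LIF by 1.88 and the EGF receptor ligand gene HBEGF by 1.52, while CCND1 (cyclin D1) fell by 0.10. In NCS at 4 h 8 rose and none fell, against 17.2% and 7.47% of genes, led by LIF (1.22), HMOX1 (0.88) and PTGS2 (0.82). After 8 h 14 passed in H2O2 and 8 in NCS (37.4% and 23.9% of genes), and after 24 h 13 and 10 (40% and 38%). Of the 4 matrix metalloproteinase genes of the list, picked out after their values were seen, MMP9 rose by 0.04 in H2O2 at 4 h (adjusted p = 0.016), from a mean of -0.96 on the rLog scale and with ranges that overlapped. MMP1, MMP3 and MMP10 did not pass at 4 h after either agent, with differences between -0.07 and 0.12, nor did MMP9 in NCS. MMP3 and MMP10 were also weakly expressed, with untreated means of 3.02 and 2.14. At 24 h MMP1 rose by 0.35 in H2O2 and in NCS (adjusted p = 1.48e-05 and 1.21e-05). MMP3 then rose by 0.20 in H2O2 only (adjusted p = 0.000467), and MMP9 and MMP10 did not pass.

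**Figure D5:**
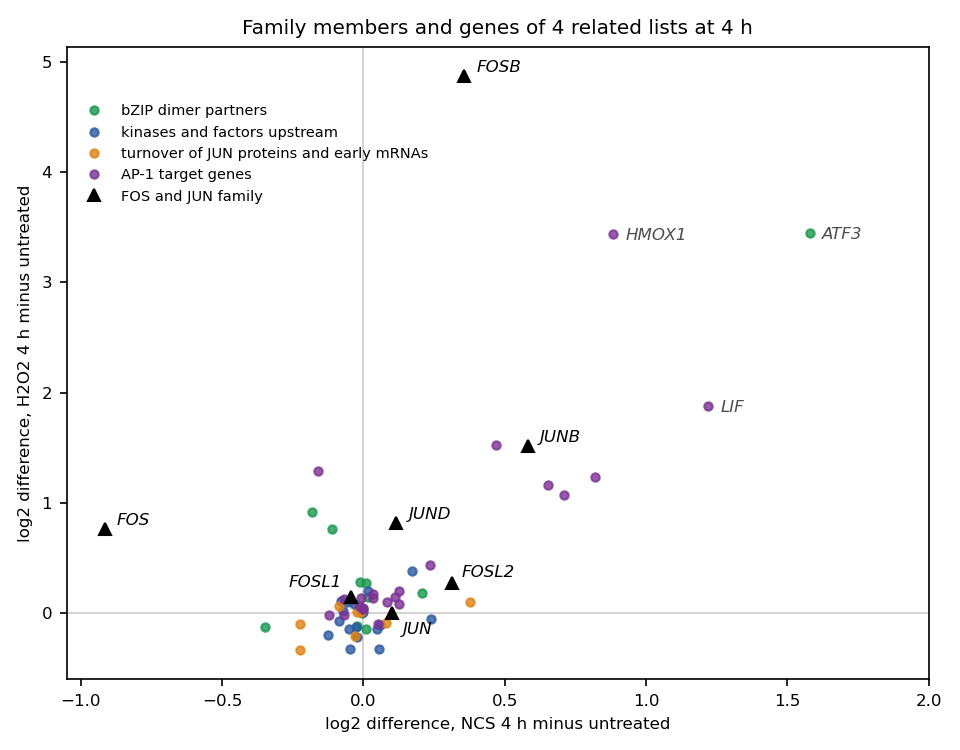
Log2 difference from untreated cells at 4 h in NCS (x axis) and in H2O2 (y axis) for the 7 members (black triangles) and for the tested genes of 4 related lists (colored points). FOSB (4.88 in H2O2) stands above all list genes, with ATF3 (3.45) and HMOX1 (3.44) next, and FOS is the member furthest to the left (-0.92 in NCS).

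Markers of other cell types were read beside these values. The summed level of the duct epithelium markers was 11.77 to 11.84 in untreated cells, 11.90 to 11.95 in H2O2 at 4 h and 11.95 to 12.01 in NCS at 4 h, a move in the same direction after both agents. The summed level of the markers of other pancreas and blood cells, nearly all of it from COL1A1, was 17.94 to 18.00 in untreated cells, 17.51 to 17.55 in H2O2 at 4 h and 18.00 to 18.04 in NCS at 4 h. COL1A1 was high in every library of this line (17.51 to 18.06), so the sum is no measure of other cells. The sum was lower in the group in which FOSB, JUNB, JUND and FOS were highest, but also in the later H2O2 groups (17.52 to 17.69). The part of this difference in the members' values was not tested.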

How the data were processed

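Values were the rLog values deposited by the authors, on a log2 scale. Per the paper's methods, mRNA libraries were made with a stranded kit, reads were aligned with HISAT2 at default settings and counted with htseq-count in Galaxy, and DESeq2 gave rLog values, which are scaled by size factors and shrunk. The submitters' processing notes name hg19. Versions, annotation and the strand setting are not given in the sources used here. The table holds no counts, so depth is unknown.

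Of 23368 genes, 3674 at 0 in every library were left out. Groups came from the labels. The other 19694 genes were tested by limma (3.58.1, R 4.3.3), all 7 groups entering a single model with trended variance. P-values were two-sided, adjusted by Benjamini-Hochberg over all genes within each of 15 comparisons, with a threshold of 0.05. The fit was tested on simulated data. Exact permutation tests were two-sided. The 6 comparisons with untreated cells share 3 libraries. The members, the 4 related lists and the markers were chosen with earlier results of these data known. Named genes are all members, for each member the 3 genes outside the family with the highest correlation and a mean of at least 5, and from each list up to 3 genes with the largest rise and up to 3 with the deepest fall at 4 h. Summed marker levels are log2 of summed linear values, and 1 marker is not reported here by itself.

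The alternatives were aligned library medians, quantile normalization, a mean of at least 5, no trend, a replicate block, only the groups compared, a log2 difference over 1 as well, and each library left out. Promoter windows (RefSeq, GRCh38.p14) and exon lengths (GENCODE v29, GRCh38) are of another build than the authors' hg19, and no coordinate was converted. Python 3.11.15 with pandas 2.3.3, numpy 2.4.6 and matplotlib 3.10.9 was used.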

Additional observations from a re-analysis of the deposited data

Results flagged for a closer look

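For 4 of 7 members the difference between H2O2 and NCS changed with time, by a test of the interaction in limma. Of all genes, 32.7% passed this test for 8 h against 4 h and 39.4% for 24 h against 4 h. FOSB differed less between the agents at 8 h than at 4 h by -2.67 (SE 0.15, adjusted p = 1.21e-09) and at 24 h than at 4 h by -4.38 (adjusted p = 1.89e-12). For FOS the values were -0.85 (SE 0.11, adjusted p = 1.46e-05) and -1.61 (adjusted p = 4.82e-09). For JUNB they were -0.94 (adjusted p = 5.02e-06) and -0.89 (adjusted p = 6.28e-06), so that nearly all of the change lay between 4 and 8 h. For JUND they were -0.65 (SE 0.14, adjusted p = 0.00151) and -0.84 (adjusted p = 0.000116). In each of these 4 genes all 3 H2O2 libraries were above all 3 NCS libraries at 4 h. The ranges were apart there, in either direction, for 50.1% of all genes.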

How the results depend on the processing

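The values hold no counts, so what depth limits could not be calculated, and leaving 1 library out of 3 leaves 2 in that group. The 7 members' differences in 15 comparisons were each recalculated under 6 alternatives other than leaving out a library, and of these values 600 kept their direction and side of the threshold, 4 lost the call, 19 gained it and 7 changed sign. With 1 library left out in turn, counted once per library and difference, 665 kept both, 20 lost the call, 8 gained it and 21 changed sign. No difference that changed sign passed the test. After quantile normalization JUN in H2O2 at 4 h was 0.0052 above untreated cells, FOSL2 differed between H2O2 and NCS by -0.0053 at 8 h and 0.028 at 24 h, and JUNB by -0.0012 at 24 h. With library medians aligned, FOSL2 in H2O2 at 24 h was at -0.014, JUNB between H2O2 and NCS at 8 h at 0.011 and JUND between H2O2 at 24 and 8 h at -0.0050. With 1 library left out, the differences that changed sign ranged against untreated cells from -0.055 to 0.050 (JUN, H2O2 at 4 h), -0.014 to 0.023 (FOSL2, H2O2 at 24 h), -0.043 to 0.0014 (FOSB, NCS at 24 h), -0.011 to 0.025 (FOSL2, NCS at 24 h) and -0.039 to 0.092 (JUND, NCS at 24 h). Between H2O2 and NCS they ranged from -0.076 to 0.018 (JUN, 8 h), -0.058 to 0.077 (JUNB, 8 h), -0.020 to 0.114 (JUND, 8 h), -0.0089 to 0.0072 (FOSL2, 24 h) and -0.046 to 0.121 (JUNB, 24 h), and between times of H2O2 from -0.073 to 0.025 (FOSL2, 8 and 4 h) and -0.094 to 0.092 (JUND, 24 and 8 h). The cause was not tested. Deviations of same-numbered libraries of different groups had a mean correlation of 0.027 over 63 pairs (-0.149 to 0.213, 12 over 0.1), against -0.014 over 126 pairs with different numbers (7 over 0.1), and 12 of 21 libraries correlated best with their own number. The labels name nothing that same-numbered libraries share, so the number was not taken to pair the samples. Whether same-numbered libraries share a batch was not tested. With the number as a replicate block, 5 instead of 3 members passed in H2O2 at 24 h (JUNB, adjusted p = 0.0318, and JUND, 0.0282, were added) and 2 instead of 1 between H2O2 and NCS at 24 h (JUND, 0.0125). JUND was lower in H2O2 than in NCS there (-0.15), and lower than in untreated cells in H2O2 at 24 h (-0.12). Under the block JUND was also lower than in untreated cells in H2O2 at 8 h (-0.13, adjusted p = 0.0178) and in NCS at 8 h (-0.17, adjusted p = 0.00478). Between NCS times it was lower at 8 than at 4 h (-0.28, adjusted p = 0.000127) and higher at 24 than at 8 h (0.20, adjusted p = 0.0009). A log2 difference over 1 as well left 2, 1 and 1 members in H2O2 at 4, 8 and 24 h and 0, 0 and 1 in NCS, 2, 1 and 0 between the agents, 2 and 1 between H2O2 times, 0 and 0 between NCS times and 1 and 2 in the interactions. It left 1, 1 and 1 partner genes in H2O2 and 1, 1 and 0 in NCS, 7, 2 and 2 AP-1 targets in H2O2 and 1, 1 and 0 in NCS, and 0 upstream and 0 turnover genes throughout. After quantile normalization 5 partner genes passed in H2O2 at 4 h and 6 upstream genes in NCS at 24 h, and with medians aligned 3 partner genes in NCS at 8 h. With only the groups compared, 3 upstream genes passed in NCS at 8 h. Between NCS at 8 and 4 h, 5 members passed with medians aligned and 5 with a mean of at least 5, and 0 to 4 with 1 library left out. With 1 library left out, 5 to 8 upstream genes passed in H2O2 at 8 h and 3 to 7 in NCS at 8 h, 2 to 4 turnover genes in NCS at 4 h and 1 to 2 partner genes in NCS at 8 h.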
